A study of Mus musculus with 7 samples.

Results

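The genes described here are 50 mouse genes of the presynaptic release machinery, of which many come in families of closely related isoforms. They were taken as the 50 listed symbols in the deposited table of 39017 genes, matched to its Ensembl identifiers through GENCODE M21. RNA had been sequenced from the hippocampus of mice that carried a Gad2-Cre driver together with an L10-EGFP allele. In translating ribosome affinity purification (TRAP), EGFP-tagged ribosomes of the Cre-expressing cells are captured, and the RNA that comes down with them is sequenced. The design text states that 2 hippocampi were pooled per sample, and the labels call 3 libraries bound (titles GAD_ctrl1, GAD_ctrl2 and GAD_ctrl3, here bound replicates 1 to 3) and 4 unbound. Unbound replicates 1 and 2 are the libraries titled UBS7 and UBS8, and unbound replicates 3 and 4 are UBGS8 and UBGS9. All 7 libraries thus share the same cross, and the labels give no age, sex, drug or explanation of the title prefixes, so that whatever the GAD_ctrl prefix stands for cannot be told apart from the pull-down. Nothing in the labels says that each library came from separate animals, so that p-values speak only of the scatter of these 7 libraries, which can be technical in part.

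Transmitter release begins when a vesicle protein of the VAMP family zips together with syntaxin and SNAP-25 on the plasma membrane into the SNARE complex. Active zone scaffolds such as RIM, ELKS, bassoon and piccolo hold vesicles and calcium channels together, Munc13 and CAPS proteins prime the vesicles, complexins bind the assembled SNARE complex, and synaptotagmins sense the incoming calcium. Many of these proteins exist in isoforms that neurons use in different proportions, and Gad2, which encodes a GABA-synthesizing enzyme, marks the inhibitory neurons of the hippocampus.

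Library totals ranged from 38690380 to 51953811 counts, and the release gene with the fewest counts in any library, Syt10, still had 55. Gad2 itself stood at 756, 722 and 759 CPM in bound replicates 1 to 3 and at 189.6, 182, 112 and 114 CPM in unbound replicates 1 to 4 (CPM, the counts of a gene relative to the scaled total of its library). Of 18 markers of GABAergic neurons 17 were higher in bound RNA by edgeR and Cck was not called, with a summed level of 6697 to 8725 CPM against 907 to 954. Of 16 excitatory neuron markers 14 were lower and 2 higher (Rasgrf2 and Bok), and their sum was 1204 to 1426 CPM in bound and 4505 to 6606 CPM in unbound RNA. All 12 microglial markers were higher in bound RNA, at a sum of 285 to 808 CPM against 91.6 to 139 CPM, while 11 of 12 astrocyte, 11 of 12 oligodendrocyte, 6 of 7 oligodendrocyte precursor and 10 of 12 endothelial and mural markers were lower. Of 12 markers of parvalbumin interneurons, which the GABAergic list holds in part, 8 were higher and Kcna1 lower. In the precursor list C1ql1 was higher, and the mural marker Kcnj8 was at 0 in all bound libraries. Astrocyte markers summed to 292 to 323 CPM in bound and 2277 to 3285 CPM in unbound RNA. The part of these cell types in the differences below was not tested, and in bulk RNA fewer cells of a type and less RNA per cell cannot be told apart. Mitochondria-encoded transcripts took 28.53% to 32.87% of unbound and 0.08668% to 0.1229% of bound counts, so that scaling by library totals in place of TMM (the trimmed mean of M-values, used throughout) moved the median log2 fold change of all genes from −0.01 to 0.43.

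Among the 50 genes, 19 were higher and 17 lower in bound RNA, and 14 were not called, at an adjusted p under 0.05 with edgeR's quasi-likelihood test. Over all 19563 genes tested, 61.7% were called, 31% higher and 30.7% lower, beside 72% of the release genes. At least 2-fold and called were 7 release genes higher and 9 lower, against 14.6% and 17.8% of all genes (32.3% in either direction). The CPM of the libraries did not overlap between the groups for 34 of the 50 (63.3% over all genes tested). The median log2 fold change of the 50 was 0.07, near that of all genes (−0.01). Among the 50, as over all genes tested, large differences in both directions lay behind a median close to 0. Several of those among the 50 fell within 1 gene family. All fold changes below are bound over unbound, levels are TMM-scaled CPM with the mean ± SD over 3 bound and 4 unbound libraries, and SE is the standard error of the log2 fold change.

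**Figure D1:**
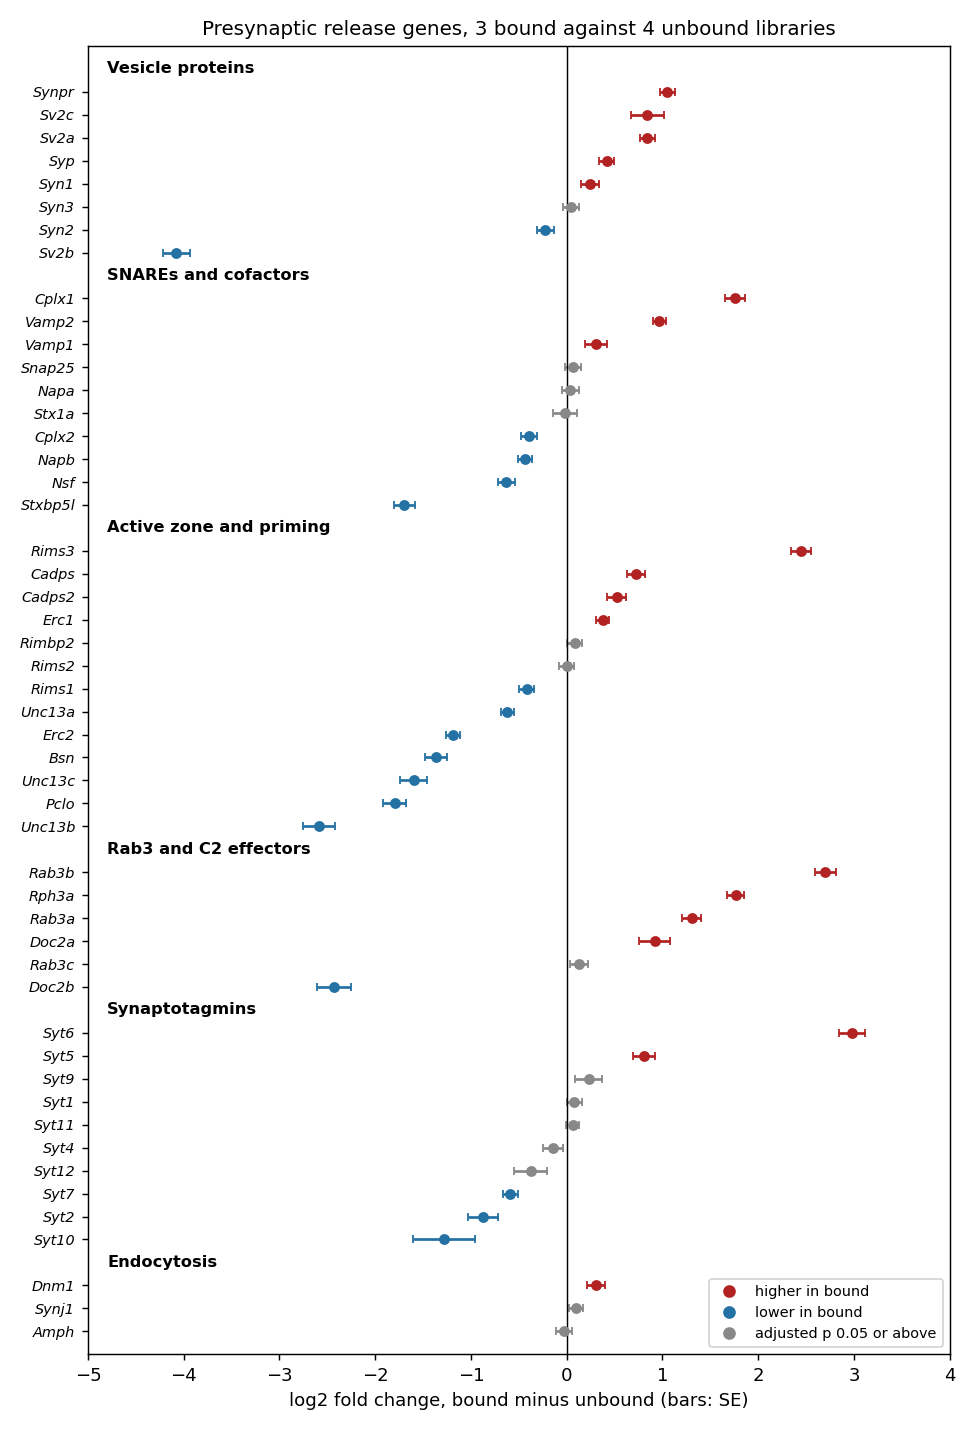
The log2 fold change of bound over unbound RNA (x axis) for each of the 50 genes (y axis), grouped by role, with bars of 1 SE. Values run from −4.08 for Sv2b to 2.98 for Syt6, and genes not called lie between −0.37 and 0.23.

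The gene with the widest difference was Sv2b, which encodes an SV2 glycoprotein of the synaptic vesicle membrane. Its relatives Sv2a, whose product is the binding site of the antiepileptic drug levetiracetam, and Sv2c moved the other way. The RefSeq sequences before the start of Sv2a (174 bases) and Sv2b (250 bases; GRCm38.p6, chr3:96180977-96181150 (plus strand) and chr7:75309263-75309512 (minus strand)) are shown because this pair had the widest change in ratio among the families. In Sv2a the capitals mark the core of an Sp1 box (GGGCGG), and in Sv2b the letters of a TATA motif (TATAAA). Both lie on the opposite strand and are therefore printed as their reverse complements, with the first printed base 154 and 50 bases before the RefSeq start. In Sv2a the last 76 bases of the window lie inside the GENCODE gene and are left out.
Sv2a: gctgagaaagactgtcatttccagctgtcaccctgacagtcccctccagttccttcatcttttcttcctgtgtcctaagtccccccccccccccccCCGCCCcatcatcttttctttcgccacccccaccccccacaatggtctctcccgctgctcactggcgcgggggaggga
Sv2b: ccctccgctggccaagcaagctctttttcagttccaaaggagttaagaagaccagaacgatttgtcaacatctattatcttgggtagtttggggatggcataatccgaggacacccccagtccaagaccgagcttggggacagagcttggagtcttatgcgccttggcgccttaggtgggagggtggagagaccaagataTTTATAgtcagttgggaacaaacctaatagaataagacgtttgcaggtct

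Sv2b (GRCm38 chr7:75114894-75309262, minus strand) measured 26.5, 26.6 and 18.8 CPM in bound replicates 1 to 3 and 447, 424, 366 and 384 CPM in unbound replicates 1 to 4. Every bound library lay far below every unbound library. The fall was 16.9-fold (log2 fold change −4.08 ± 0.14 SE, adjusted p = 3.06e-09). Sv2a (chr3:96181151-96195521, plus strand) stood at 270.1, 247 and 302 CPM in the bound and 164, 148, 153 and 146 CPM in the unbound libraries, again with no overlap, and was 1.79-fold higher in bound RNA (log2 fold change 0.84 ± 0.08 SE, adjusted p = 4.36e-06). Sv2c had lower levels, 36.4, 39.3 and 25.1 CPM against 22.3, 14.7, 18.7 and 19.4 CPM, and was 1.79-fold higher (log2 fold change 0.84 ± 0.17 SE, adjusted p = 0.00124). Per kilobase of merged exon, Sv2a made up 90.2% ± 2.62 (SD) of the 3 SV2 transcripts in bound and 39.6% ± 1.71 in unbound RNA, whereas Sv2b made up 4.43% ± 1.09 and 58.0% ± 1.93.

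Of the 8 genes for vesicle-tethering and vesicle membrane proteins, 5 were higher, 2 lower and 1 not called, with a median log2 fold change of 0.33. Over all genes tested 31% were called higher and 30.7% lower, and the counts of each role below stand beside these shares. Synpr, which encodes synaptoporin, a relative of synaptophysin, rose from 36.0 ± 1.46 to 74.6 ± 5.54 CPM (log2 fold change 1.05 ± 0.08 SE, adjusted p = 7.80e-07), with bound libraries at 80.1, 69.0 and 74.8 CPM. Syp, which encodes synaptophysin, one of the most abundant vesicle proteins, was 1.34-fold higher (928, 961 and 953 CPM against 799, 685, 708 and 643 CPM; log2 fold change 0.42 ± 0.08 SE, adjusted p = 0.000751). Counts of Syp carry an uncertainty, since 16.79% of its exon length overlaps the annotated gene Gm14703. The groups of libraries did not overlap for either gene.

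The synapsins, which tether vesicles to each other and to actin, differed little. Syn1 read 481, 435 and 583 CPM in the bound and 419, 439, 434 and 394 CPM in the unbound libraries (log2 fold change 0.25 ± 0.09 SE, adjusted p = 0.0422), with bound replicate 2 inside the unbound range. Without bound replicate 3 the log2 fold change of Syn1 was 0.12 (adjusted p = 0.186), and the call was also lost by DESeq2 (adjusted p = 0.0529) and without bound replicate 1 or unbound replicate 3 or 4. Syn2 read 265, 250.4 and 322 CPM against 346, 325, 313 and 318 CPM, with bound replicate 3 inside the unbound range. It was called lower (log2 fold change −0.22 ± 0.09 SE, adjusted p = 0.0476), but the sign turned with library totals (0.21) and with a correction that removes a smooth trend of counts on exon length in each library (0.06). Its log2 fold change was −0.15 (adjusted p = 0.192) without bound replicate 2 and −0.34 without bound replicate 3, and the call was lost without any 1 of the other 5 libraries. Syn3 was not called, with 53.4 ± 2.13 CPM (bound) and 51.8 ± 4.63 CPM (unbound) and adjusted p = 0.684.

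Among the SNARE proteins and their cofactors, 3 of 10 genes were higher, 4 lower and 3 not called. The plasma membrane SNAREs did not pass the test: Snap25 measured 5149.8 ± 161 CPM (bound) and 4918 ± 485 CPM (unbound), with adjusted p = 0.523, and Stx1a, which encodes syntaxin-1A, 29.1 ± 2.09 and 29.5 ± 4.53 CPM, with adjusted p = 0.893. The vesicle SNARE gene Vamp2, for synaptobrevin-2, was higher, at 2515, 2684 and 2916 CPM in the bound and 1378, 1339, 1427 and 1385 CPM in the unbound libraries. Its groups were separated by a wide gap, and the rise was 1.96-fold (log2 fold change 0.97 ± 0.07 SE, adjusted p = 5.14e-07). Vamp1 was also called higher, with 98.5, 107 and 139 CPM against 94.1, 81.3, 97.5 and 96.6 CPM (log2 fold change 0.31 ± 0.12 SE, adjusted p = 0.0358). The groups of Vamp1 were separated by a narrow gap, and its log2 fold change was 0.15 (adjusted p = 0.168) without bound replicate 3 and 0.27 (adjusted p = 0.0801) without unbound replicate 2. Per exon kilobase Vamp2 made up 98.4% ± 0.171 (SD) of the pair in bound and 97.6% ± 0.146 in unbound RNA.

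The complexins moved in opposite directions with TMM scaling. Cplx1 (chr5:108518554-108550024, minus strand) measured 1225, 1216 and 1655 CPM in bound replicates 1 to 3 and 377, 435, 401 and 401 CPM in unbound replicates 1 to 4. Bound replicate 3 was the highest, and even the lowest bound library was far above the highest unbound one. The rise was 3.38-fold (log2 fold change 1.76 ± 0.11 SE, adjusted p = 1.69e-07). Cplx2 (chr13:54371349-54383917, plus strand) measured 998, 1003 and 1213 CPM against 1419, 1524, 1337 and 1352 CPM and was called lower (log2 fold change −0.39 ± 0.09 SE, adjusted p = 0.00217), although with library totals its log2 fold change was 0.04 (adjusted p = 0.727). Per exon kilobase, Cplx1 was above Cplx2 in bound RNA (624 ± 115 against 217 ± 24.9 CPM per kilobase) and below it in unbound RNA (184 ± 10.9 against 286 ± 17.3). The share of Cplx1 in the pair was 74.0% ± 1.24 in bound and 39.2% ± 1.31 in unbound RNA, a change that does not depend on the scaling of the libraries, since both genes are read in the same library.

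Stxbp5l encodes tomosyn-2, a syntaxin-binding protein that competes with VAMP for SNARE assembly. It was 3.24-fold lower in bound RNA, with 41.0, 29.3 and 36.6 CPM against 117, 121, 109 and 113 CPM (log2 fold change −1.70 ± 0.11 SE, adjusted p = 2.46e-07), and its libraries were widely separated. The genes for the disassembly machinery that recycles SNARE complexes after fusion differed among themselves. Nsf, the ATPase of that machinery, fell from 675 ± 30.1 to 436 ± 57.4 CPM (log2 fold change −0.63 ± 0.09 SE, adjusted p = 0.000106), and Napb, for the neuronal adaptor beta-SNAP, from 762 ± 47.5 to 565 ± 26.3 CPM (log2 fold change −0.43 ± 0.07 SE, adjusted p = 0.000336). Napa, for alpha-SNAP, was not called at 106 ± 12.8 and 104 ± 4.87 CPM (adjusted p = 0.721). Neither call held in every setting: with library totals Nsf had a log2 fold change of −0.20 (adjusted p = 0.0691), and with an exon length correction Napb had −0.15 and was no longer called.

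Active zone and priming genes had the lowest median log2 fold change of the 6 roles, −0.42. This ranking takes no account of exon length, and all protein-coding genes tested from 8000 bases of exon on had a median of −0.49. Whether the role differs from other genes of like length was not tested. Of these 13 genes 4 were higher, 7 lower and 2 not called, beside 31% higher and 30.7% lower of all genes tested. The libraries did not overlap for 11 of the 13, beside 63.3% of all genes tested. The 3 Munc13 genes, whose products open syntaxin and prime vesicles for fusion, were all lower. Unc13a, which encodes Munc13-1, stood at 75.8, 75.7 and 84.6 CPM in the bound libraries and 121 ± 4.51 CPM in the unbound ones (log2 fold change −0.62 ± 0.07 SE, adjusted p = 2.07e-05). Unc13b, for Munc13-2, was the lowest of the family relative to unbound RNA, with 3.51, 5.52 and 5.63 CPM against 29.7, 26.7, 29.1 and 31.7 CPM, a 6.0-fold fall (log2 fold change −2.59 ± 0.17 SE, adjusted p = 2.68e-07). Unc13c, for Munc13-3, was 3.03-fold lower, at 7.40, 7.94 and 5.94 against 21.8, 18.6, 22.8 and 23.0 CPM (log2 fold change −1.60 ± 0.14 SE, adjusted p = 2.19e-06). All bound libraries lay below all unbound libraries for the 3 genes, but the call of Unc13a depended on exon length, with a log2 fold change of −0.11 (adjusted p = 0.175) after a length correction. Per exon kilobase Unc13a took 85.9% ± 1.97 (SD) of the Munc13 transcripts in bound and 71.9% ± 2.18 in unbound RNA, and Unc13b took 2.95% ± 0.65 and 9.67% ± 0.633.

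In the RIM family, which tethers calcium channels and vesicles at the active zone, the isoforms took 3 different courses. Rims3 (chr4:120854816-120896579, plus strand), which encodes the short RIM3-gamma form with a single C2 domain, was 5.46-fold higher in bound RNA (log2 fold change 2.45 ± 0.11 SE, adjusted p = 1.58e-08). It measured 154, 160.0 and 162 CPM in bound replicates 1 to 3 and 35.8, 28.1, 25.8 and 26.7 CPM in unbound replicates 1 to 4, with a narrow range in the bound libraries and a wide gap between the groups. Rims1, for the full-length scaffold RIM1, was called lower at 151, 133 and 162 CPM against 186, 199, 206 and 203 CPM (log2 fold change −0.42 ± 0.08 SE, adjusted p = 0.000834), but its log2 fold change was 0.01 with library totals and −0.13 (adjusted p = 0.213) with a length correction. Rims2 stood at means of 56.1 and 56.0 CPM (adjusted p = 0.982). Per exon kilobase Rims1 and Rims3 were at like levels in bound RNA, with 44.3% ± 2.64 and 43.8% ± 1.86 (SD) of these 3 genes. In unbound RNA Rims1 took 74.9% ± 2.63 and Rims3 10.2% ± 1.69. The shares leave out a further RIM gene, Rims4, at 6.55 CPM per kilobase in bound and 2.46 in unbound RNA. Rimbp2, whose product links RIM to calcium channels, was not called (43.0 ± 1.43 and 40.5 ± 1.74 CPM, adjusted p = 0.374).

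The genes of the giant scaffold proteins bassoon and piccolo were both lower. Bsn read 218, 217 and 271 CPM in the bound and 669, 675, 559.8 and 519.6 CPM in the unbound libraries (log2 fold change −1.36 ± 0.12 SE, adjusted p = 2.06e-06). Pclo read 176, 184 and 247 CPM against 782, 693, 664 and 670.0 CPM, a 3.47-fold fall (log2 fold change −1.80 ± 0.12 SE, adjusted p = 3.27e-07). In both, bound replicate 3 was the highest of the bound libraries and still far below the lowest unbound library. Over the 16 alternatives, which include an exon length correction, the log2 fold change ran from −1.51 to −0.73 for Bsn and from −1.96 to −0.95 for Pclo. The ELKS genes, whose products bind RIM and bassoon, moved apart: Erc2 fell 2.28-fold, from 207, 229, 232 and 241 CPM to 102, 100.3 and 96.6 CPM (log2 fold change −1.19 ± 0.07 SE, adjusted p = 1.41e-07), whereas Erc1 rose 1.30-fold, from 103 ± 4.85 to 134 ± 8.37 CPM (log2 fold change 0.38 ± 0.07 SE, adjusted p = 0.00081). The share of Erc1 in the pair, per exon kilobase, was 44.5% ± 2.08 (SD) in bound and 21.4% ± 1.85 in unbound RNA. The CAPS genes, which act in priming of dense-core and synaptic vesicles, were both higher, Cadps at 286 ± 31.5 against 173 ± 17.7 CPM (log2 fold change 0.72 ± 0.10 SE, adjusted p = 6.14e-05) and Cadps2 at 102 ± 15.1 against 70.8 ± 4.64 CPM (log2 fold change 0.52 ± 0.10 SE, adjusted p = 0.000944).

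The role made up of the Rab3 genes, Rph3a and the Doc2 genes had the highest median of the 6 roles, 1.11, again with no account of exon length. Of its 6 genes 4 were higher, 1 lower and 1 not called. Rab3 proteins are small GTPases on the vesicle surface that bind RIM and rabphilin. Rab3b (chr4:108879063-108943324, plus strand) was 6.50-fold higher (log2 fold change 2.70 ± 0.11 SE, adjusted p = 9.51e-09), with 379.8, 278 and 392 CPM in the bound and 53.2, 52.2, 55.6 and 54.1 CPM in the unbound libraries. The unbound libraries lay within a narrow range, and the lowest bound library, replicate 2, was far above them. Rab3a, the most abundant of the family per exon kilobase in both groups, measured 461, 468 and 611 CPM against 193, 212, 219 and 207 CPM (log2 fold change 1.31 ± 0.10 SE, adjusted p = 8.02e-07). Rab3c was not called, at 827 ± 52.7 and 754 ± 85.5 CPM (adjusted p = 0.236). The share of Rab3b in the family went from 8.94% ± 0.523 to 24.9% ± 3.18 (SD) without overlap, that of Rab3c went from 36.5% ± 1.87 to 17.3% ± 1.44, and that of Rab3a, 54.6% ± 1.54 and 57.8% ± 2.85, overlapped between the groups.

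Rph3a (chr5:120940499-121010092, minus strand) encodes rabphilin-3A, which binds Rab3 and carries C2 domains. It measured 649, 564 and 736 CPM in bound replicates 1 to 3 against 191, 192, 191 and 191 CPM in unbound replicates 1 to 4, so that the unbound libraries were almost level and all bound libraries lay well above them. The rise was 3.39-fold (log2 fold change 1.76 ± 0.08 SE, adjusted p = 2.83e-08). The Doc2 genes, for cytosolic C2-domain proteins that bind calcium, moved in opposite directions. Doc2b (chr11:75768966-75796049, minus strand) fell 5.37-fold, with 19.2, 10.5 and 15.8 CPM against 88.5, 85.1, 78.3 and 74.1 CPM (log2 fold change −2.43 ± 0.18 SE, adjusted p = 5.92e-07). Doc2a was called higher at 22.8, 23.2 and 23.3 CPM against 8.73, 15.5, 11.9 and 12.6 CPM (log2 fold change 0.92 ± 0.16 SE, adjusted p = 0.000525), but 39.35% of its exon length overlaps Ino80e, and counts from the 2 genes can be mixed.

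The synaptotagmins, vesicle proteins whose C2 domains bind calcium in many of the isoforms, were divided. Of 10 genes, 2 were higher, 3 lower and 5 not called, with a median log2 fold change of −0.04. The upstream sequences of Syt1 and Syt6 are shown from RefSeq GRCm38.p6 (chr10:109010976-109011225 (minus strand) and chr3:103574995-103575244 (plus strand)), because Syt6 had the widest change among the family's ratios to Syt1. Syt1 is the main fast calcium sensor of forebrain neurons, and Syt6 had the greatest rise of the 50 genes. Capitals mark GGGCGG on the printed strand, with its first base 11 bases before the start in Syt1 and 69 and 18 bases before it in Syt6.
Syt1: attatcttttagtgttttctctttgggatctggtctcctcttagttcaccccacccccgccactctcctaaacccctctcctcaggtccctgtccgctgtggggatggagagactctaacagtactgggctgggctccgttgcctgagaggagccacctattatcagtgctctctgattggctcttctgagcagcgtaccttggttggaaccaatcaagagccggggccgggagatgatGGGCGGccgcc
Syt6: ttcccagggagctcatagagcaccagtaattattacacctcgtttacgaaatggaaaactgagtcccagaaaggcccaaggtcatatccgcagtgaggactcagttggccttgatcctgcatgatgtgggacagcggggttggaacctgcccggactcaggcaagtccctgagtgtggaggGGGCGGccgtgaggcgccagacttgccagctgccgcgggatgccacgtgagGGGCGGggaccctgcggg

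Syt6 (chr3:103575231-103645569, plus strand) measured 82.0, 82.6 and 79.8 CPM in bound replicates 1 to 3 and 7.38, 11.2, 11.5 and 11.1 CPM in unbound replicates 1 to 4. The bound libraries were nearly level, and unbound replicate 1 was the lowest library. The rise was 7.89-fold (log2 fold change 2.98 ± 0.14 SE, adjusted p = 2.45e-08). Syt5 was 1.75-fold higher, with 85.7, 75.7 and 61.7 CPM against 42.4 ± 3.75 CPM (log2 fold change 0.81 ± 0.11 SE, adjusted p = 9.98e-05). The fast sensors Syt1 (1007 ± 84.6 and 953 ± 56.4 CPM, adjusted p = 0.399) and Syt9 (8.88 ± 0.841 and 7.56 ± 0.618 CPM, adjusted p = 0.174) were not called. Syt2, the other fast sensor of the family, was lower at 13.2, 8.26 and 12.2 CPM against 20.5 ± 0.536 CPM (log2 fold change −0.87 ± 0.15 SE, adjusted p = 0.000499). Syt7, a high-affinity sensor linked to asynchronous release and facilitation, was lower, at 150.1 ± 11 against 225 ± 17.8 CPM (log2 fold change −0.59 ± 0.08 SE, adjusted p = 8.80e-05), though with library totals its log2 fold change was −0.15 (adjusted p = 0.117).

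Syt10 had the lowest mean CPM of the 50 genes. It measured 3.56, 2.58 and 1.25 CPM in the bound libraries and 4.52, 5.82, 7.52 and 6.20 CPM in the unbound ones. Per exon kilobase Syt10 stood at 1.33 in bound and 3.26 in unbound RNA. Unc13b (0.215 and 1.29) and Unc13c (0.806 and 2.45) were lower on that scale. Syt10 was called lower in bound RNA (log2 fold change −1.28 ± 0.32 SE, adjusted p = 0.00502). The call was lost when the UBS libraries alone stood for unbound RNA (log2 fold change −1.06, adjusted p = 0.0604). Syt4 and Syt11, whose first C2 domain lacks a residue needed for calcium binding, were not called: Syt4 stood at 94.1 ± 16.3 and 104 ± 3.48 CPM (adjusted p = 0.258) and Syt11 at 398 ± 24.7 and 380.3 ± 16.8 CPM (adjusted p = 0.435). Syt12 was at 13.8 ± 2.46 and 17.9 ± 3.74 CPM (adjusted p = 0.0819). Without bound replicate 1 Syt4 was called lower (log2 fold change −0.28), and without bound replicate 3 Syt12 was called lower (−0.51). Per exon kilobase Syt1 and Syt11 together made up most of the listed synaptotagmins in both groups. Syt1 took 41.1% ± 2.31 (SD) in bound and 41.6% ± 0.738 in unbound RNA. Syt11 took 26.0% ± 0.653 and 26.6% ± 0.653, and both overlapped between the groups. Syt6 went from 0.648% ± 0.144 to 4.77% ± 0.292 of the listed genes. Syt5 went from 6.49% ± 0.525 to 10.6% ± 1.20 and Syt7 from 10.9% ± 0.473 to 6.85% ± 0.882, none overlapping. These shares leave out synaptotagmins that are not among the 50 genes. Of those, Syt13 stood at 35.6 CPM per kilobase in bound and 29.5 in unbound RNA, and Syt3 at 24.5 and 14.3.

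Of the 3 endocytosis genes, Dnm1, for the fission GTPase dynamin-1, was called higher at 444, 432 and 568 CPM against 389 ± 14.6 CPM (log2 fold change 0.31 ± 0.09 SE, adjusted p = 0.0151). Without bound replicate 3 its log2 fold change was 0.17 (adjusted p = 0.046), and with totals that leave out mitochondria-encoded genes it was 0.19 (adjusted p = 0.0676). Amph, for amphiphysin, which recruits dynamin (128 ± 15.5 and 131 ± 2.91 CPM, adjusted p = 0.773), and Synj1, for synaptojanin-1, a lipid phosphatase of vesicle uncoating (585 ± 37.9 and 547 ± 36.0 CPM, adjusted p = 0.281), were not called. With the exon length correction Synj1 was called higher (log2 fold change 0.42, adjusted p = 0.000531).

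**Figure D2:**
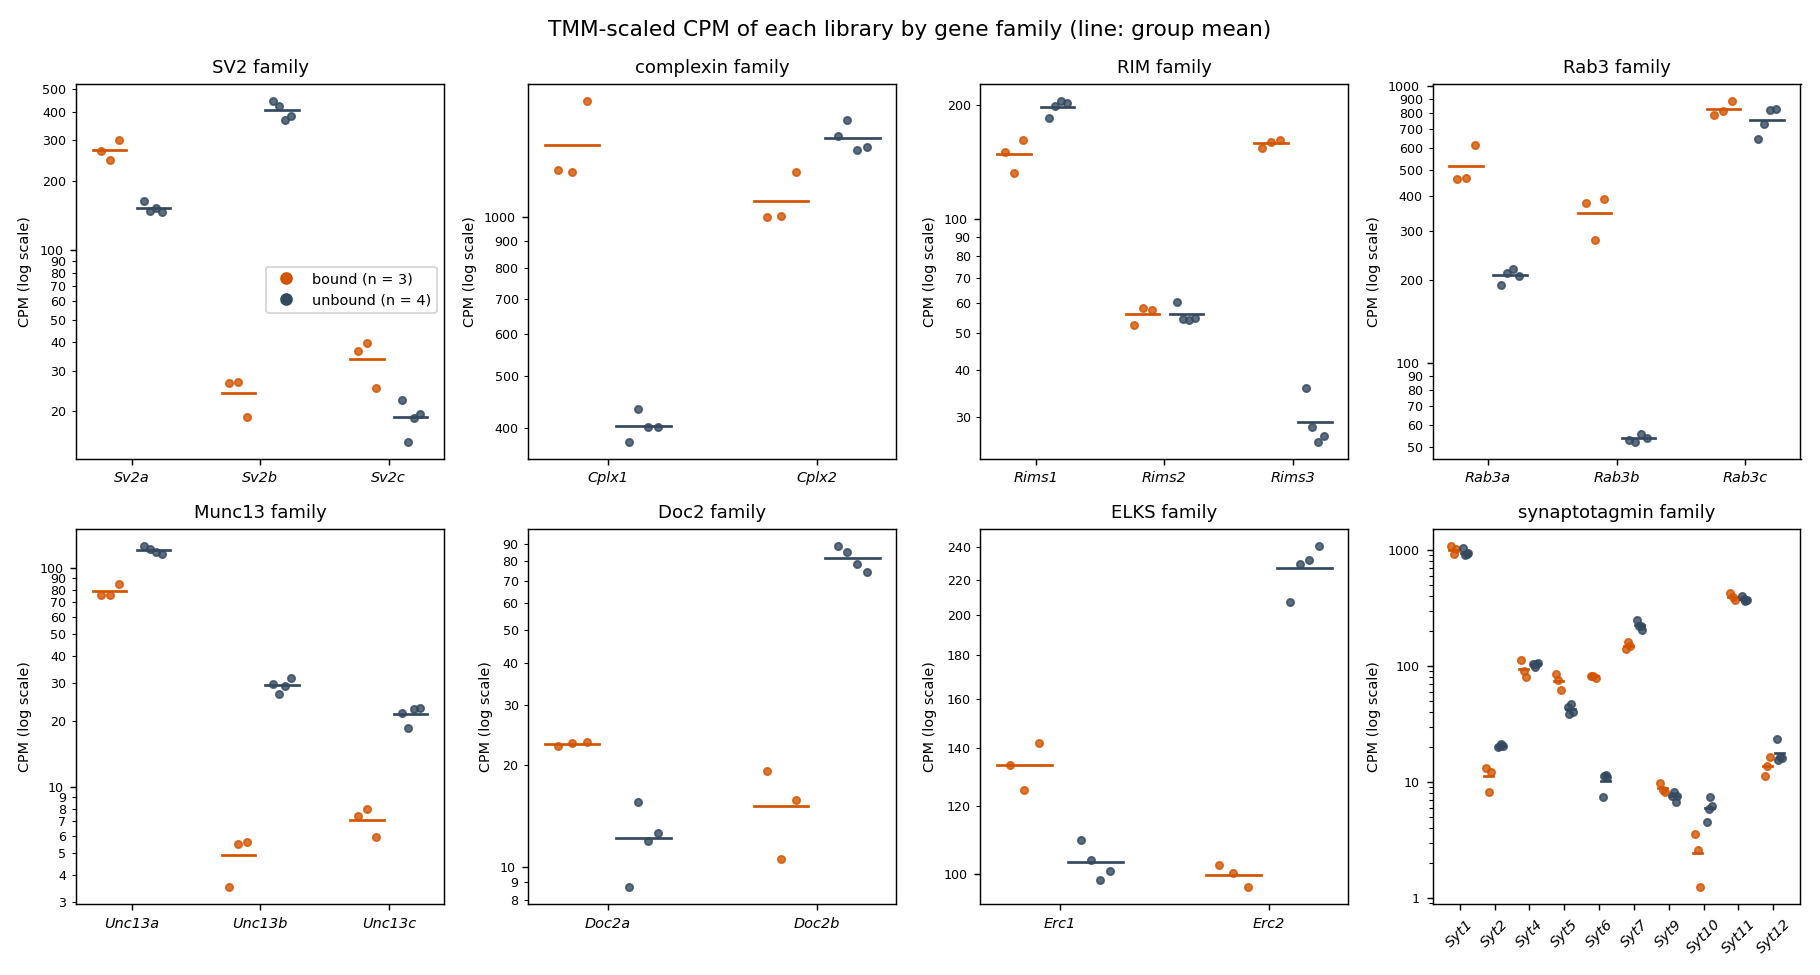
TMM-scaled CPM (log axis) of each library for the genes of 8 families, with bound libraries in orange (n = 3), unbound libraries in blue (n = 4) and lines at the group means. Sv2b lies at 18.8 to 26.6 CPM in bound and 366 to 447 CPM in unbound libraries, while Sv2a, Rims3, Rab3b and Syt6 lie higher in the bound libraries.

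Compared per exon kilobase, the order of the 50 genes differed at the top. In bound RNA Snap25 (758 ± 23.7 CPM per kilobase), Vamp2 (710.2 ± 52.8) and Cplx1 (624 ± 115) led, and these neighbours did not differ beyond their spread. Rab3a (231 ± 38.0) and Cplx2 (217 ± 24.9) came next and also lay within each other's spread. In unbound RNA Snap25 (724 ± 71.5) was well above Vamp2 (363 ± 9.45), followed by Cplx2 (286 ± 17.3), Cplx1 (184 ± 10.9) and Syp (136 ± 12.6), each apart from its neighbour by more than the SD of either. Sv2b, at 48.3 ± 4.37 CPM per kilobase in unbound RNA, was at 2.86 ± 0.539 in bound RNA.

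**Figure D3:**
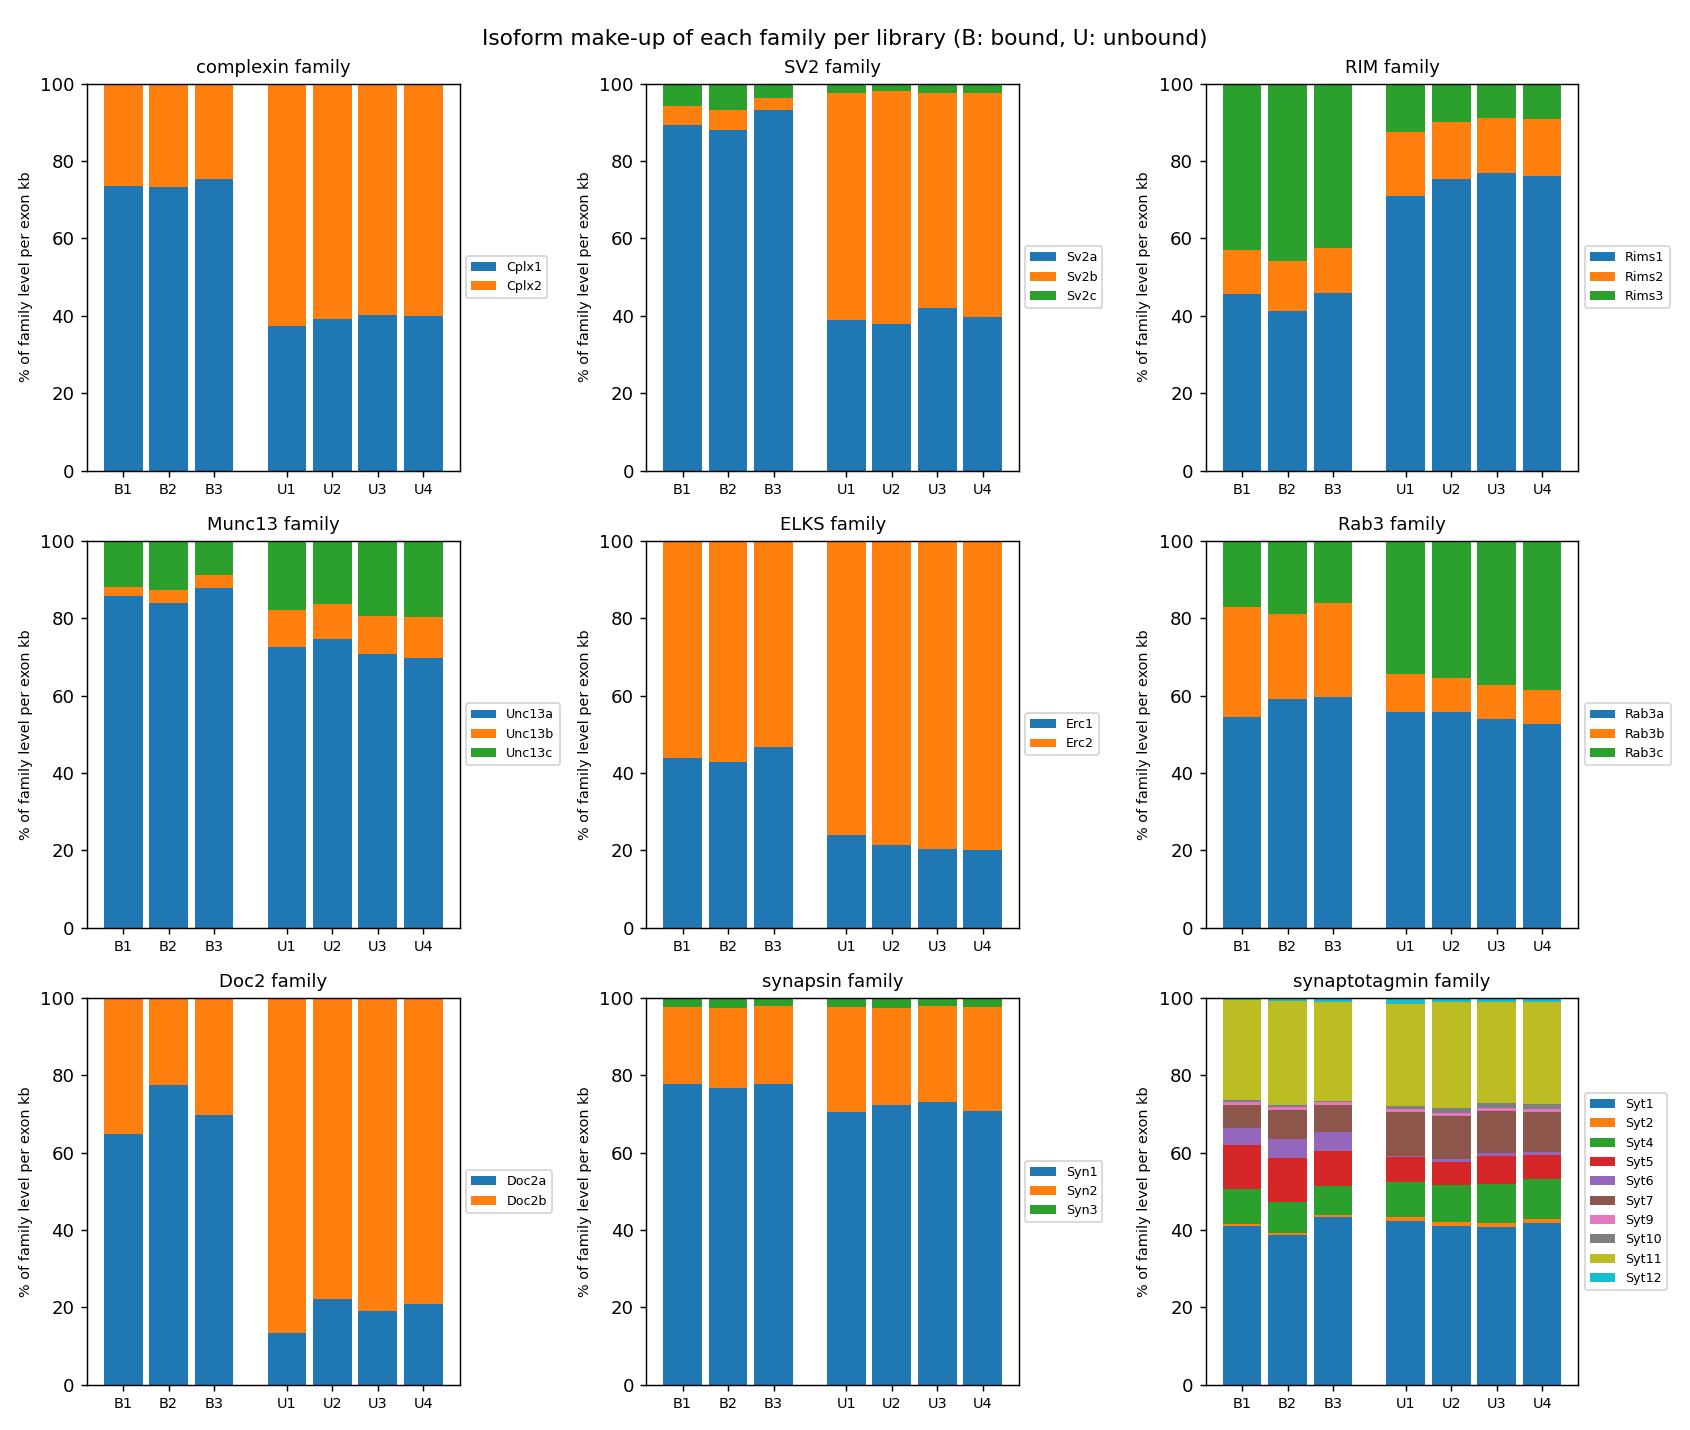
Share of each isoform among the listed genes of its family, as stacked bars for each library in 9 families. The y axis is the percent of their summed CPM per kilobase of merged exon. Libraries are marked B for bound replicates 1 to 3 and U for unbound replicates 1 to 4. As group means, Cplx1 goes from 39.2% in unbound to 74.0% in bound RNA, Sv2a from 39.6% to 90.2% and Rims3 from 10.2% to 43.8%.

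Isoforms were then contrasted within each library, as the log2 ratio of each isoform to the first gene of its family, which removes the scaling between libraries. Of 27 such ratios in 14 families, 21 (77.8%) did not overlap between the groups, 7 higher and 14 lower in bound RNA, beside 63.1% of all pairs of genes tested. The exact two-sided permutation test of 3 against 4 libraries cannot go below p = 0.0571, and all 21 stood at that value (adjusted over the 27 ratios, 0.0735), so that none could pass 0.05. The widest change was in Sv2b over Sv2a, with log2 ratios of −3.32, −3.19 and −3.97 in bound and 1.44, 1.52, 1.26 and 1.39 in unbound libraries. Bound replicate 3 had the lowest ratio, the unbound libraries were nearly level, and the mean ratio was 29.8-fold lower in bound RNA. Doc2b over Doc2a, with the overlap of Doc2a noted above, went from 2.72 ± 0.38 to −0.63 ± 0.44 (SD). Cplx2 over Cplx1 went from 1.80 ± 0.08 to −0.34 ± 0.09, 4.42-fold lower, and Erc2 over Erc1 from 1.14 ± 0.15 to −0.42 ± 0.12. All 4 of these ratios lay lower in every bound than in any unbound library.

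In the synaptotagmin family, Syt6 over Syt1 was higher in bound RNA by 2.87 on the log2 scale (−7.04, −6.29, −6.26 and −6.33 in unbound and −3.72, −3.47 and −3.67 in bound libraries), and Syt5 over Syt1 by 0.72. Syt2 over Syt1 differed by −0.95, Syt7 over Syt1 by −0.66, Syt10 over Syt1 by −1.28 and Syt12 over Syt1 by −0.43, without overlap. Syt4, Syt9 and Syt11 over Syt1 overlapped between the groups, with differences of −0.23, 0.14 and −0.01. Rims3 over Rims1 was higher by 2.86, or 7.25-fold, and Rims2 over Rims1 by 0.42. Unc13b over Unc13a differed by −1.87 and Unc13c over Unc13a by −0.92. Vamp2 over Vamp1 was higher by 0.67, Synpr over Syp by 0.62 and Rab3b over Rab3a by 1.38, while Rab3c over Rab3a differed by −1.15. Differences of −0.47 for Syn2 over Syn1, −0.46 for Napb over Napa and −0.45 for Pclo over Bsn were smaller and also free of overlap. Syn3 over Syn1 (−0.19), Sv2c over Sv2a (−0.02) and Cadps2 over Cadps (−0.21) overlapped.

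**Figure D4:**
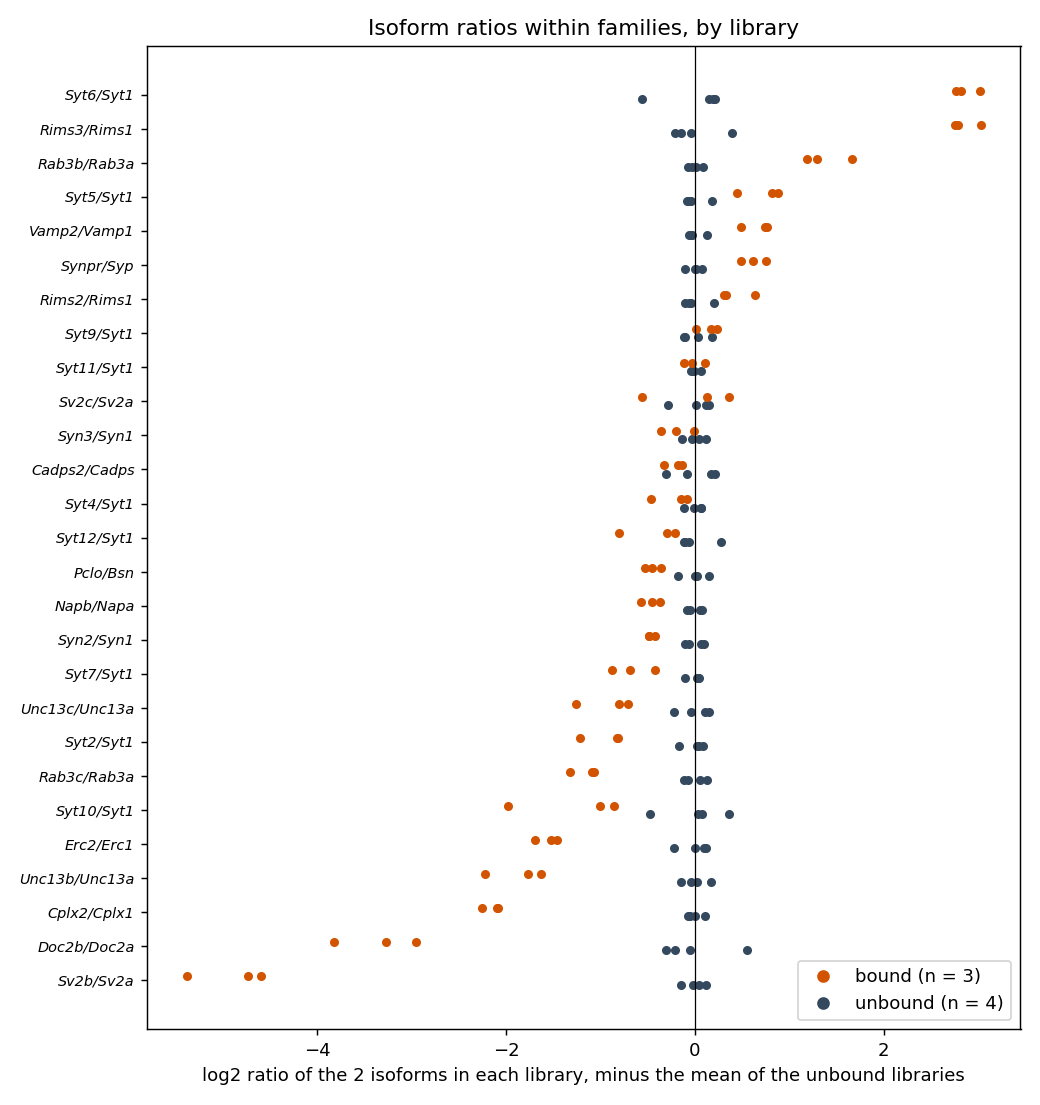
Log2 ratio of each isoform to the first gene of its family in every library, minus the mean of the unbound libraries (x axis), for the 27 ratios (y axis), with bound libraries in orange and unbound in blue. Group differences run from −4.90 for Sv2b over Sv2a to 2.87 for Syt6 over Syt1, and 21 of the 27 have libraries that do not overlap between the groups.

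No gene of the 50 shared a stretch of 50 transcribed bases with another gene of its own family, so reads of that length or longer that match perfectly tell the isoforms apart. Overlap with other annotated genes was the wider limit: 34 of the 50 had no exon overlap, and in 5 over 10% of the exon length was overlapped, Doc2a with 39.35%, Syt12 with 17.15%, Syp with 16.79%, Syt4 with 14.54% and Syn3 with 14.11%. On either strand, 6 genes shared over 10% of their stretches of 50 bases with a gene outside their family. Among them was Erc1 (10.68%, most with Gm44317), which had no exon overlap. Syt6 shared 7.587%, most with Atg4a-ps. Family shares use the merged exon length and count only the genes of a family that are among the 50. With the longest transcript in its place all 41 isoforms kept the direction of their change in share, and 5 of 82 shares moved by over 1.5 times, those of Syn2 in bound RNA (30.6%) and of Syn3 (4.77% in bound, 4.83% in unbound) and Rims2 (19.8% and 24.9%) in both groups.

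Exon length moved with the comparison over the whole table. Protein-coding genes under 2000 bases of exon had a median log2 fold change of 0.65, those from 2000 to 4000 of 0.17, from 4000 to 8000 of −0.15, and from 8000 bases on of −0.49. Of the 50 release genes, 1 lay in the shortest class (Syt10), 11 in the next with a median of 0.81, 18 in the next with 0.02 and 20 in the longest with 0.02. Under a correction for exon length, Syn1, Syn2, Unc13a, Rims1 and Napb were no longer called, whereas Syn3 (0.54), Snap25 (0.33), Rims2 (0.42), Rimbp2 (0.40), Rab3c (0.61), Syt1 (0.41), Syt11 (0.25) and Synj1 (0.42) were called higher. What gives rise to the trend was not tested.

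**Figure D5:**
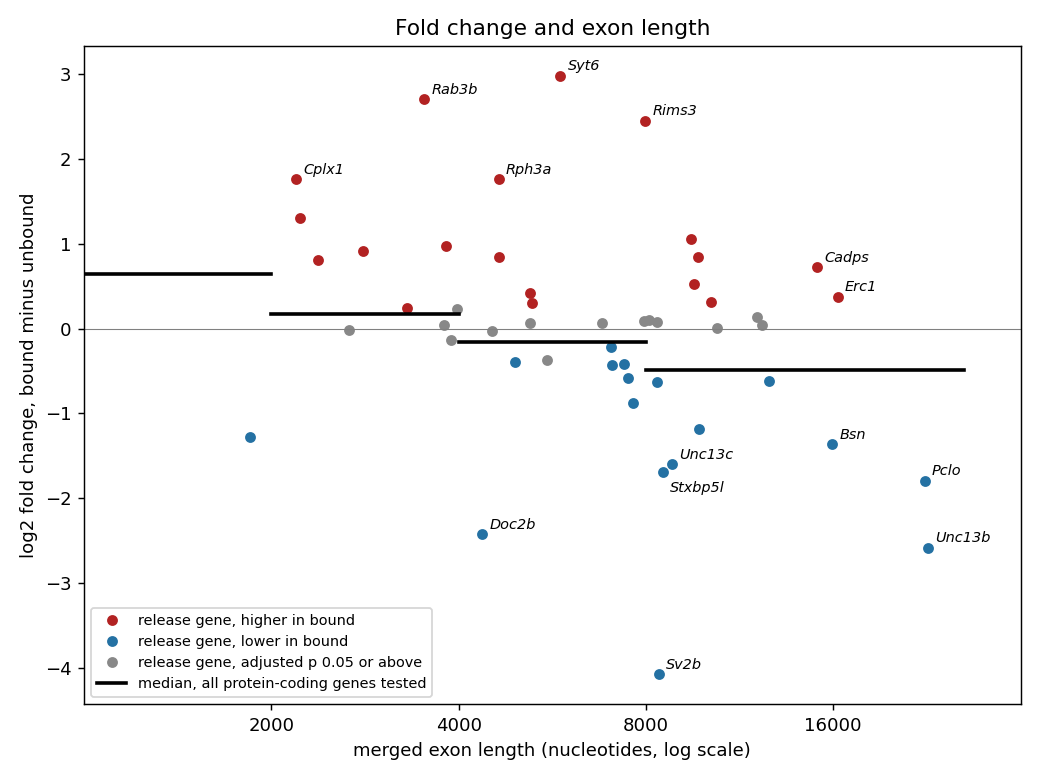
Log2 fold change of bound over unbound RNA (y axis) against merged exon length (x axis, log scale, bases) for the 50 genes, coloured by call, with black lines at the medians of all protein-coding genes tested in 4 length classes. The medians fall from 0.65 under 2000 bases to −0.49 from 8000 bases on.

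Bound replicate 3 was the highest of the bound libraries for 30 of the 50 genes, against 37.1% of all genes tested, and bound replicate 2 was the lowest for 22 of the 50, against 37.0%. The summed level of the 50 genes was 22370 CPM in bound replicate 3, 20042 in bound replicate 1 and 19786 in bound replicate 2. In bound replicate 3 the summed GABAergic markers were also highest (8725 CPM, against 7297 and 6697 in replicates 1 and 2), and in bound replicate 2 the microglial markers were (808 CPM, against 348 and 285). The part of these in the levels of the release genes was not tested. Between the UBS and UBGS unbound libraries, the ratio of mean CPM ranged from 0.754 to 1.25, above 1.1 in 10 genes and below 0.9 in 6.

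Among other genes of the vesicle cycle, 37 were higher, 37 lower and 27 not called, beside the 31% and 30.7% of all genes tested. Of 58 other genes of the release machinery 54 were tested, with 16 higher and 24 lower and a median log2 fold change of −0.29. Of 21 other vesicle proteins 19 were tested, with 11 higher and 3 lower and a median of 0.34, and of 28 other endocytosis genes 10 were higher and 10 lower, with a median of −0.12. The vesicle genes Atp6v0c, for a subunit of the proton pump that energizes transmitter loading (282 ± 13.4 to 856 ± 49.8 CPM, log2 fold change 1.60 ± 0.07 SE, adjusted p = 1.39e-08), and Syngr3, for synaptogyrin-3 (62.3 ± 2.03 to 173 ± 11.8 CPM, log2 fold change 1.47 ± 0.07 SE, adjusted p = 2.68e-08), had the widest rises among genes of at least 10 CPM. They were followed by Ppfia4, for liprin-alpha-4 (1.43), Rims4, for the short form RIM4-gamma (1.41), Dnm3, for dynamin-3 (1.32), and Ap2s1, for a subunit of the AP-2 clathrin adaptor (1.30). Rims4 thus rose, as did the other short RIM gene, Rims3. The widest falls were those of Sypl (−2.07), a synaptophysin relative, Synpo (−1.86), whose product is known from dendritic spines, the endocytosis genes Fcho2 (−1.77) and Itsn2 (−1.62), and the SNARE genes Vamp3, for cellubrevin (−1.59), and Stx3, for syntaxin-3 (−1.39).

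RefSeq held an upstream window of 250 bases for 40 of the 50 genes. GGGCGG was found on either strand in 27 of the 40 (67.5%), against 32.7% of all 32851 windows and 44.6% of the 19820 windows of protein-coding genes. For the 40 genes the window nearest the GENCODE start was taken, a choice not made for the other windows, so that the shares are not strictly alike. Among the 27, the windows of Rab3c and Syt11 and the matches of Syp lie inside the GENCODE gene. The window of Cplx2, without a match, belongs to a start 68793 bases from the GENCODE start. TATAAA was found in Rab3b and Sv2b (5% against 12.4% of all windows). These genes moved in opposite directions. TTCAGCACC, the left part of the binding site of the repressor REST, and TGACGTCA, the cyclic AMP response element, were each found in 1 gene, Syn1 (0.301% and 1.55% of all windows). The Syn1 window (chrX:20921005-20921168 (minus strand), without its last 86 bases, which lie inside the GENCODE gene) is shown, chosen after its values were seen, with TTCAGCACC and TGACGTCA in capitals, their first bases 232 and 159 bases before the RefSeq start. A match is a stretch of letters and not a measured site, and no motif overlapped another in the windows printed.
Syn1: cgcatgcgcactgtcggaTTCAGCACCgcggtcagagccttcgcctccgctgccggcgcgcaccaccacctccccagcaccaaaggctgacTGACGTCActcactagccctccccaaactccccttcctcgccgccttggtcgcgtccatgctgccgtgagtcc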

How the data were processed

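The deposited table holds raw read counts per gene, not normalized by the authors, for 7 libraries. The submitters' processing notes name STAR 2.5.3a, HTSeq without a version, and mm10. Which annotation release and strand setting were used, and how reads matching several places were handled, is not given in the sources used here, so that overlapping genes may share reads. Of the 39017 identifiers 37693 were named through GENCODE M21 (GRCm38), and all 50 genes had 1 entry and were tested.

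The 3 bound libraries were compared with the 4 unbound libraries in R 4.3.3 with edgeR 4.0.16 (filterByExpr, TMM, glmQLFit with robust estimation, glmQLFTest). Benjamini-Hochberg adjustment ran over all 19563 genes tested, at a threshold of 0.05. CPM, levels per merged-exon kilobase, family shares and log2 ratios of CPM + 0.5 were computed from the counts, and ratios were tested by exact permutation in SciPy 1.17.1. All 50 genes are named, with the 6 widest called changes per direction among the other pathway genes of at least 10 CPM and some family relatives outside the 50. The members and lists were chosen with earlier results of these data known. At these totals, 38690380 to 51953811 counts, the spread between libraries and not counting error sets the precision of nearly all the genes named. Tested on simulated data of 19273 genes, the fit called 85 of 97 genes with a simulated log2 change of 1. It called 98 of 98 with a change of 2, and 7.576% of its calls were false. The simulation changed few genes, as many up as down, with the same dispersion for every gene. It held no difference in mitochondria-encoded RNA and no length trend, whereas 61.7% of genes were called in the data. Its rates therefore need not hold for these libraries. Alternatives were DESeq2 1.42.0, other scalings, filters and offsets, an exon length offset, a 1.5-fold minimum, each unbound title series alone and leaving out each library. Upstream sequences are those of RefSeq (GRCm38.p6).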

Additional observations from a re-analysis of the deposited data

Results flagged for a closer look

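Among 94 values checked in the 4 unbound libraries (the CPM of the genes and the log2 ratios of the isoforms), 9 had 1 library whose gap to the nearest other exceeded Dixon's 95% critical value for 4 samples. Chance flags about 1 in 20 groups, and groups of 3 libraries were not tested. Unbound replicate 1 stood apart for Rims2 (60.5 CPM, the others 54.0 to 54.9), Syt6 (7.38 CPM, the others 11.1 to 11.5), Syt12 (23.5 CPM, the others 15.6 to 16.4) and Nsf (629.9 CPM, the others 687 to 692). It also stood apart in the log2 ratios of Syt6 over Syt1 (−7.04, the others −6.33 to −6.26) and Syt12 over Syt1 (−5.43, the others −5.83 to −5.77). In unbound replicate 2 the log2 ratio of Vamp2 over Vamp1 was 4.03 (the others 3.83 to 3.87). In unbound replicate 3 that of Syt5 over Syt1 was −4.29 (the others −4.56 to −4.52), and in unbound replicate 4 that of Syt7 over Syt1 was −2.18 (the others −2.05 to −2.04).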

How the results depend on the processing

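Of the 36 genes called, 25 kept their call and direction in all 15 alternatives other than the 1.5-fold minimum, and 20 in all 16. The other 11 were Syn1, Syn2, Vamp1, Cplx2, Napb, Nsf, Unc13a, Rims1, Syt7, Syt10 and Dnm1. The counts of 19 higher and 17 lower became 33 and 11 with library totals in place of TMM and 11 and 10 with the 1.5-fold minimum. Under that minimum the other pathway genes had 17 higher and 24 lower calls. With library totals 71.48% of all calls were higher, against 50.28% with TMM. Among genes called in at least 1 of the 2 fits compared, the log2 fold change changed sign with library totals for Syn2 (0.21), Stx1a (0.41), Rims1 (0.013), Cplx2 (0.035), Syt4 (0.30) and Amph (0.40), and with the exon length offset for Syn2 (0.057). The cause of each was not tested. Among genes called in neither fit, it crossed 0 with library totals for Syt12 (0.062), with the exon length offset for Amph (0.086), and with totals that leave out mitochondria-encoded genes for Syn3, Snap25, Rims2, Rimbp2, Syt1, Syt11, Napa and Synj1 (−0.104 for Rims2 at the widest). Syn3, Snap25, Stx1a, Rims2, Napa and Amph also crossed 0, uncalled, in other settings. Leaving out each library in turn gave 17 to 19 higher and 16 to 18 lower genes. The isoform ratios were run under 11 alternatives: other offsets added to CPM, each unbound title series alone, and each library left out. The exon length offset was not applied to the ratios. Under these 11 the number of isoform ratios without overlap ranged from 21 to 23. None of the 21 ratios that did not overlap changed direction in them, whereas 2 overlapping ones crossed 0, Syt11 over Syt1 (to 0.0383) and Sv2c over Sv2a (to 0.247), both at the widest without bound replicate 3. Depth limits mainly Syt10, the only one of the 50 genes under 100 counts in a library. No paired analysis was possible because the labels pair no bound with an unbound library and the title numbers of the 2 groups (1 to 3 against 7 to 9) are not shared.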
